A study of Mus musculus with 6 samples.

Results

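The genes described here are 10 feedback and readout genes of the ERK pathway: 4 dual-specificity phosphatases (Dusp1, Dusp4, Dusp5, Dusp6), 3 Sprouty genes (Spry1, Spry2, Spry4), 2 Spred genes (Spred1, Spred2) and the ETS factor gene Etv4. They were taken by symbol from a table of 24421 gene symbols, and all 10 were found and had enough signal to be tested among 11559 genes. The RNA came from primary cultures of mouse proximal tubular cells, epithelial cells of the tubule segment that follows the glomerulus. All 6 libraries came from cells given 20 µM erastin2, an inhibitor of cystine uptake that can set off ferroptosis, for 24 h. There were 3 libraries of the genotype labelled Atg5F/F (floxed control) and 3 labelled Atg5KO, which lacks by label a protein needed to attach LC3 to autophagosomes. The labels give the same batch date for all libraries, no Cre driver, no animal or culture for a replicate and no animal age. No untreated group was analysed here, so a difference between genotypes cannot be told apart from one that was there without the drug.

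The ERK cascade carries signals from receptor tyrosine kinases through Ras, Raf and MEK to the kinases ERK1 and ERK2. Active ERK switches on genes that then dampen the cascade. DUSP proteins remove phosphates from ERK and related kinases, Sprouty proteins act between receptor and Ras, and SPRED proteins bring the Ras inactivator neurofibromin to the membrane. The transcript levels of these genes are widely used as a readout of ERK output, and Spry1 limits growth factor signalling in the developing kidney.

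The labels could not be checked from the targeted gene. Atg5 stood at 8.76, 8.95 and 7.94 FPKM (fragments mapped to a gene, scaled by its length and by the reads of the library) in Atg5F/F replicates 1 to 3 and at 13.3, 11.5 and 12.7 FPKM in Atg5KO replicates 1 to 3. A value for the whole gene does not show whether an exon is missing, so every direction below rests on the labels, and the libraries are named by their label. The read totals implied by the FPKM values ran from 15528454 to 30004933 per library. Of 15 proximal tubule markers, 8 were high enough to test. Of those 7 were called lower and 1, Aqp1, higher in Atg5KO-labelled libraries (limma adjusted p under 0.05). Of all genes tested, 17.9% were called lower and 21.3% higher. The summed level of the 15 was 229.5 to 256.5 FPKM in Atg5F/F-labelled and 129.3 to 141.0 FPKM in Atg5KO-labelled libraries. The transporter gene Slc22a8 was at 0 in every library and Slc34a1 reached at most 0.251 FPKM, so these defining transporters were absent or nearly so. Markers of leukocytes summed to between 10.3 and 13.4 FPKM in all libraries, with Adgre1, Cd3e and Itgam at 0. Most of that sum came from Csf1r and Cd68, neither of which was called. Csf1r had means of 7.05 FPKM in Atg5F/F-labelled and 7.07 FPKM in Atg5KO-labelled libraries, and Cd68 of 5.01 and 4.19 FPKM. The summed level of fibroblast and pericyte markers was 2.59 to 3.4 FPKM in Atg5F/F-labelled and 7.25 to 9.88 FPKM in Atg5KO-labelled libraries, but only 2 of the 10 were tested and they went opposite ways. Postn rose from 0.76 to 8.01 FPKM and Cspg4 fell from 1.90 to 0.46 FPKM, while Pdgfra reached at most 0.126 FPKM. Among the proximal tubule markers called lower, Keg1 fell from 5.20 to 0.96 FPKM. Keg1, Postn and Cspg4 each passed the filter (1 FPKM in 3 or more libraries) only through the group where they were higher. That they were tested is thus not independent of their direction. Endothelial markers summed to 10.3 to 11.9 FPKM against 7.40 to 9.02 FPKM, a difference carried by Kdr (9.06 and 5.53 FPKM), with Flt1 at 1.71 and 2.12 FPKM and Pecam1 at most at 0.213 FPKM. Podocyte markers summed to 27.2 to 31.3 FPKM in all libraries, and distal and collecting duct markers to at most 0.24 FPKM. The part of these shifts in the results below was not tested. In bulk RNA, fewer cells of a type and less RNA per cell cannot be told apart.

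Promoter sequence was available for 7 of the 10 genes, from RefSeq on GRCm38.p6 (Dusp4, Spry4 and Etv4 were not matched). Each window holds the 250 bases before the RefSeq start site. The windows below are printed for 1 of the genes that rose (Dusp1), the gene that fell (Spred2) and a pair of phosphatase genes that were not called (Dusp5 and Dusp6). They are cut where a GENCODE vM21 exon of the gene begins. Capitals mark matches, on either strand, to the cyclic AMP response element TGACGTCA, its short core TGACG (which overlaps it), or the CArG box bound by serum response factor.
Dusp1, chr17:26508520-26508722, minus strand: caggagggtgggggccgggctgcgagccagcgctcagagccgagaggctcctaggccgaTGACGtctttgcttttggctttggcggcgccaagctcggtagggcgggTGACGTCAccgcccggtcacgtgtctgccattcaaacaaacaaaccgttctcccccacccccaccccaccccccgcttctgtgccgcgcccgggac
Spred2, chr11:19924192-19924374, plus strand: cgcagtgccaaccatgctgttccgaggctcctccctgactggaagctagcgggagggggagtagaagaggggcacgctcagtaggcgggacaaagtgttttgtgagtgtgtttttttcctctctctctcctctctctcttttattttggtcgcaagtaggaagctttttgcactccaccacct
Dusp5, chr19:53528895-53529108, plus strand: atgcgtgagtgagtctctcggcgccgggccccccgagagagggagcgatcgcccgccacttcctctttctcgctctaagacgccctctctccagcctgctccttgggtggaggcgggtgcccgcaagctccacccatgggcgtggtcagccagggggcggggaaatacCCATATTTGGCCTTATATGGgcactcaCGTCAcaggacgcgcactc
Dusp6, chr10:99262981-99263230, plus strand: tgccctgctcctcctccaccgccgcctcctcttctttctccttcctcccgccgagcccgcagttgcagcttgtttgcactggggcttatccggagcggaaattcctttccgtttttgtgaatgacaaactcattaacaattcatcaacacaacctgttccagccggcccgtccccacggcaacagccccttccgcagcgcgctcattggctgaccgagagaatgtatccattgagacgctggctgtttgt
The Dusp1 window held the full element TGACGTCA, which occurred in 1.5% of the 32817 promoter windows of the same length. Its short core TGACG was in the windows of Dusp1, Dusp5 and Spred2, and in 17.7% of all windows. The match in Spred2 lies 51 bases before the start site, beyond the printed stretch. Dusp5 alone among the 7 held CArG boxes, 2 that abut each other, against 1.5% of all windows with at least 1. Neither CCGGAAG, the only form of the ETS motif searched for (6.9% of all windows), nor the AP-1 motif TGACTCA (4.5%) was found in these 7 windows. Whether they hold ETS sites of another form was not examined. These matches are letters in a sequence, not measured binding.

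Under erastin2, Dusp1 and Etv4 rose and Spred2 fell in Atg5KO-labelled libraries. The other 7 genes, among them Dusp6 and the 3 Sprouty genes, did not pass the test. Calls were made with limma on log2(FPKM + 1) at an adjusted p under 0.05 over all genes tested. Of all 11559 genes 39.2% were called (21.3% higher and 17.9% lower), so 3 of 10 is no more than the background of this comparison. The excess of higher calls over all genes did not hold under median-ratio scaling (2170 higher, 2345 lower) or with the gene length trend removed (2189 higher, 2241 lower). The median absolute log2 fold change was 0.10 for the 10 genes and 0.14 for all genes tested. The signed medians were -0.01 and 0.02. The values of the groups did not overlap for 3 of the 10 genes, the same 3 that were called, against 51.9% of all genes tested (28.7% with the Atg5KO-labelled group higher and 23.2% with it lower). The log2(FPKM + 1) scale understates changes of genes with low FPKM.

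**Figure D1:**
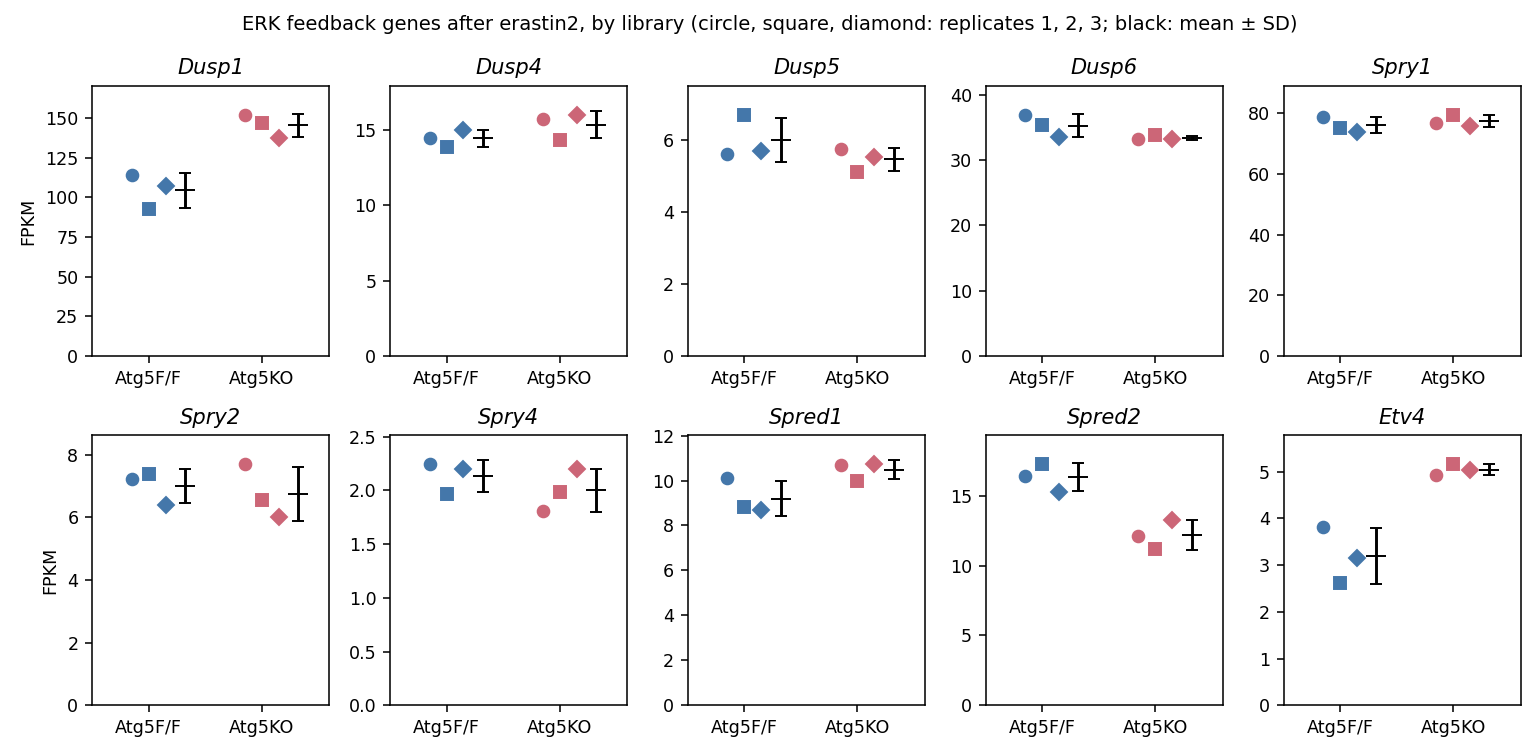
FPKM of the 10 genes in each library, with its own axis from 0 for each gene. Points are libraries (circle, square and diamond for replicates 1, 2 and 3) and black bars the mean and SD of 3. The points of the groups lie apart for Dusp1, Spred2 and Etv4 only.

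Dusp1 (chr17:26505591-26508472 in RefSeq, minus strand) encodes MKP-1, a nuclear phosphatase that inactivates p38, JNK and ERK and is itself induced within minutes of growth factor or stress signals. Its FPKM values were 114.3, 92.6 and 107.1 in Atg5F/F-labelled replicates 1 to 3 and 152.1, 147.0 and 137.6 in Atg5KO-labelled replicates 1 to 3. Every Atg5KO-labelled library was above every Atg5F/F-labelled one. Group means of 104.7 ± 11.1 and 145.6 ± 7.34 FPKM (SD, n = 3) gave a log2 fold change of 0.48 (SE 0.074, adjusted p = 0.00134 by limma). Reads on the gene numbered between 2793 and 6662 per library, so counting error was small. Permuting its 6 values (exact test, two-sided) cannot go below p = 0.1 with 3 against 3, and this was the p reached. The same holds for each gene whose groups did not overlap. Dusp1 was the most abundant of the 10 genes in both groups, and the change added more FPKM than all other changes of the 10 together. In all, 7.94% of the genes tested had a larger absolute change.

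The other phosphatases of the group moved little. Dusp6 (chr10:99263231-99267489, plus strand, GENCODE vM21 on GRCm38 as for the genes that follow) encodes MKP-3, the cytoplasmic phosphatase specific to ERK and a widely used transcript readout of ERK activity. It stood at 37.0, 35.5 and 33.5 FPKM in Atg5F/F-labelled and 33.3, 33.8 and 33.3 FPKM in Atg5KO-labelled replicates 1 to 3. The highest Atg5KO-labelled value lay above the lowest Atg5F/F-labelled one. The log2 fold change was -0.08 with a 95% interval from -0.17 to 0.02 (limma adjusted p = 0.193). Dusp4 (chr8:34807297-34819894, plus strand), a nuclear phosphatase of ERK and JNK, had 14.4, 13.9 and 14.96 FPKM in Atg5F/F-labelled and 15.7, 14.3 and 16.0 FPKM in Atg5KO-labelled replicates. Its log2 fold change was 0.08 (95% interval -0.04 to 0.20, limma adjusted p = 0.246), and the groups overlapped.

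Dusp5 (chr19:53529109-53542431, plus strand), the nuclear phosphatase specific to ERK, was at 5.60, 6.69 and 5.70 FPKM in Atg5F/F-labelled replicates and at 5.75, 5.12 and 5.52 FPKM in Atg5KO-labelled ones. Atg5F/F-labelled replicate 2 was the highest and the other 5 libraries lay within a narrow range. The log2 fold change was -0.11 (95% interval -0.28 to 0.06, limma adjusted p = 0.266). It was -0.04 without Atg5F/F replicate 2 and -0.06 with the gene length trend removed. Between 100 and 194 reads per library supported it. The gene length implied by the FPKM values was 1155 bases, against 1152 bases of coding sequence and 2473 bases of exon in GENCODE vM21, so reads in the untranslated parts of Dusp5 do not appear to have been counted.

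**Figure D2:**
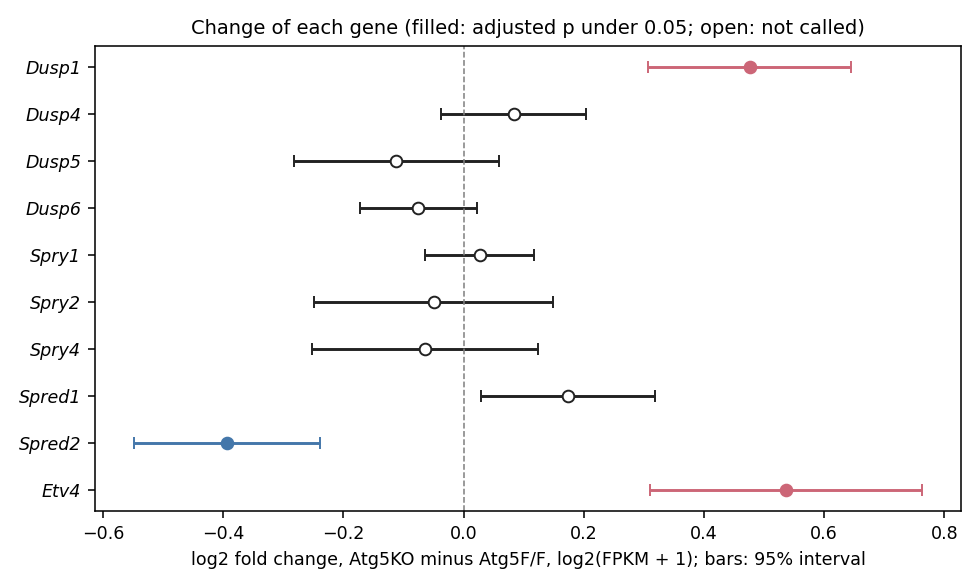
Log2 fold change of each gene, Atg5KO minus Atg5F/F, on the log2(FPKM + 1) scale, with its 95% interval from limma. Filled points passed an adjusted p of 0.05: Dusp1 at 0.48, Etv4 at 0.54 and Spred2 at -0.39. The interval of Spred1 lies above 0 although its adjusted p was 0.058.

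The Sprouty genes gave no call. Spry1 (chr3:37639947-37644598, plus strand), by far the most abundant of the 3, was at 78.9, 75.1 and 73.7 FPKM in Atg5F/F-labelled and at 76.7, 79.4 and 75.8 FPKM in Atg5KO-labelled replicates. The groups overlapped almost fully, and the log2 fold change of 0.03 had the narrowest interval of the 10 genes (-0.06 to 0.12, limma adjusted p = 0.629). Spry2 (chr14:105891947-105896819, minus strand) had 7.23, 7.37 and 6.39 FPKM in Atg5F/F-labelled and 7.70, 6.54 and 6.00 FPKM in Atg5KO-labelled replicates. The lowest and the highest of these values were both from Atg5KO-labelled libraries (log2 fold change -0.05, 95% interval -0.25 to 0.15, limma adjusted p = 0.679). Spry4, the least abundant of the 10 genes, was at 2.24, 1.96 and 2.19 FPKM in Atg5F/F-labelled and at 1.81, 1.98 and 2.20 FPKM in Atg5KO-labelled replicates, on 140 to 309 reads. Its log2 fold change was -0.06 (95% interval -0.25 to 0.12, limma adjusted p = 0.566). Summed over the 3 genes, Sprouty transcripts came to 85.1 ± 3.04 FPKM in Atg5F/F-labelled and 86.1 ± 1.98 FPKM in Atg5KO-labelled libraries (SD, n = 3).

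The Spred genes differed from each other. Spred2 (chr11:19924375-20024026, plus strand) was at 16.4, 17.3 and 15.3 FPKM in Atg5F/F-labelled and at 12.1, 11.2 and 13.3 FPKM in Atg5KO-labelled replicates 1 to 3. All Atg5KO-labelled values lay below all Atg5F/F-labelled ones. Group means of 16.3 ± 1.00 and 12.2 ± 1.06 FPKM (SD, n = 3) gave a log2 fold change of -0.39 (SE 0.068, adjusted p = 0.00226 by limma). Spred1 (chr2:117121374-117182279, plus strand), its paralogue, stood at 10.1, 8.81 and 8.69 FPKM in Atg5F/F-labelled and at 10.7, 10.0 and 10.7 FPKM in Atg5KO-labelled replicates. Atg5F/F-labelled replicate 1 reached into the Atg5KO-labelled range while replicates 2 and 3 did not. The log2 fold change was 0.17 (95% interval 0.03 to 0.32, limma adjusted p = 0.058), just short of the threshold.

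The call of Spred1 depended on the library set and the method. Without Atg5F/F-labelled replicate 1 it was called (0.235, limma adjusted p = 0.0171). The authors' deposited table gives Spred1 a log2 fold change of 0.15 and an FDR of 0.0259. By that source 4 of the 10 genes had an FDR under 0.05, against 41.2% of the genes tested here, and the additional gene was Spred1. Spred1 also had the longest implied gene length of the 10, 7084 bases, and long genes were relatively higher in Atg5KO-labelled libraries. Across genes, which are not independent replicates, a Spearman rho of gene length with the deviation of a library from the gene mean was -0.228 to -0.161 in Atg5F/F-labelled and 0.040 to 0.344 in Atg5KO-labelled libraries. After this trend was taken out, the log2 fold change of Spred1 was 0.10 (limma adjusted p = 0.232) and that of Spred2 -0.41 (limma adjusted p = 0.00173).

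The ratio of Spred1 to Spred2 within a library does not depend on its total. The length trend can still enter it, as the implied lengths were 7084 and 2872 bases. No ratio was computed with that trend removed. Spred1 over Spred2 was 0.614, 0.510 and 0.569 in Atg5F/F-labelled and 0.882, 0.895 and 0.808 in Atg5KO-labelled replicates, with no overlap. Spred1 thus went from 0.564 ± 0.052 to 0.862 ± 0.047 of the level of Spred2 per kilobase (SD, n = 3). The sum of both lay within 24.0 to 26.5 FPKM in Atg5F/F-labelled and 21.2 to 24.0 FPKM in Atg5KO-labelled libraries. The same ratio of Dusp1 to Dusp6 was 3.09, 2.61 and 3.19 in Atg5F/F-labelled and 4.57, 4.35 and 4.14 in Atg5KO-labelled replicates, so these phosphatase transcripts did not move together. Both ratios were chosen after the values were seen and carry no test beyond the smallest exact p of 0.1. The ratios of Dusp6 to Dusp4 and of Spry1 to Spry2 were also computed, and in each the groups overlapped. Their means in Atg5F/F-labelled and Atg5KO-labelled libraries were 2.454 and 2.186 for the former and 10.875 and 11.579 for the latter. The share of non-overlapping ratios over all pairs of genes was not computed.

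**Figure D3:**
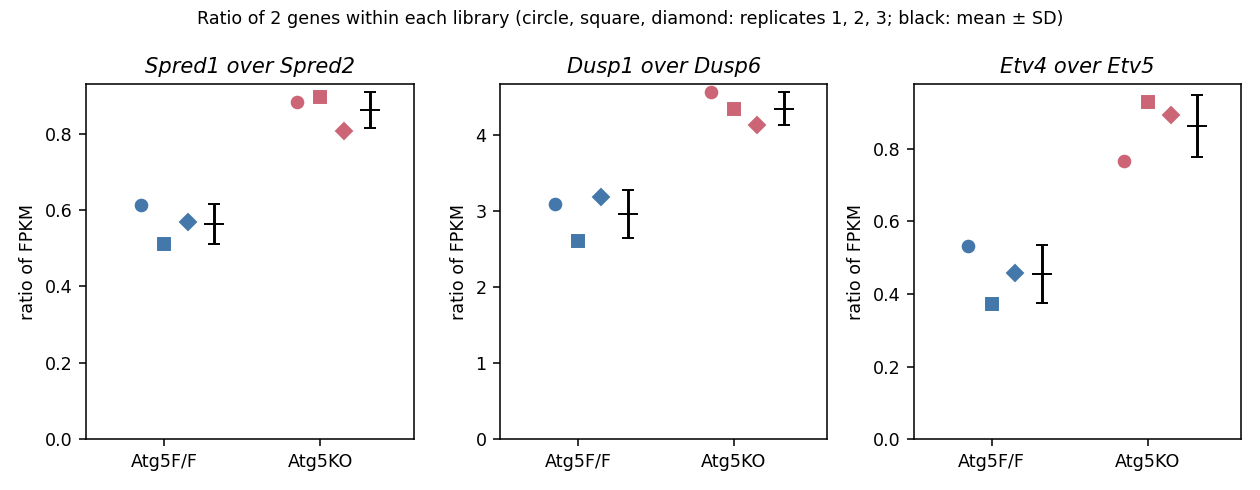
Ratio of the FPKM of a pair of genes within each library, with axes from 0. Points are libraries (circle, square and diamond for replicates 1, 2 and 3) and black bars the mean and SD of 3. The Atg5KO-labelled ratios lie above the Atg5F/F-labelled ones in each panel, with means of 0.862 against 0.564 for Spred1 over Spred2. The ratios of Dusp6 over Dusp4 and Spry1 over Spry2, whose groups overlapped, are not drawn.

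Etv4 (chr11:101769742-101785371, minus strand), a PEA3-group ETS transcription factor induced downstream of FGF and RET receptors, was the gene with the largest change of the 10. Its FPKM values were 3.82, 2.62 and 3.14 in Atg5F/F-labelled and 4.93, 5.16 and 5.04 in Atg5KO-labelled replicates 1 to 3. Every Atg5KO-labelled value was above every Atg5F/F-labelled one, and the Atg5KO-labelled values were close together. Group means of 3.20 ± 0.60 and 5.04 ± 0.12 FPKM (SD, n = 3) gave a log2 fold change of 0.54 (SE 0.099, adjusted p = 0.00326 by limma). The values rest on 95 to 268 reads per library, the lowest in Atg5F/F-labelled replicate 2. That library also had the lowest Dusp1 level, and without it the log2 fold changes were 0.435 for Etv4 and 0.39 for Dusp1, both still called (limma adjusted p = 0.00614 and 0.00167).

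Etv5, a related PEA3-group gene named here after its values were seen, fell from 7.02 ± 0.16 to 5.87 ± 0.48 FPKM, by 0.22 on the log2 scale (adjusted p = 0.0217 by limma). Etv1, the remaining member of that group, was below the level tested, at 0.041 to 0.213 FPKM. Per kilobase, Etv4 stood at 0.455 ± 0.080 of the level of Etv5 in Atg5F/F-labelled and at 0.863 ± 0.085 in Atg5KO-labelled libraries (SD, n = 3).

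The order of levels per kilobase was nearly the same in both groups. In Atg5F/F-labelled libraries it ran from Dusp1 (104.7 FPKM) over Spry1 (75.9), Dusp6 (35.3), Spred2 (16.3), Dusp4 (14.4), Spred1 (9.20), Spry2 (7.001), Dusp5 (6.00) and Etv4 (3.20) down to Spry4 (2.13 FPKM). Only the neighbours Spry2 and Dusp5 overlapped in their library values. In Atg5KO-labelled libraries Dusp4 stood above Spred2, with means of 15.3 and 12.2 FPKM and no overlap, and the values of Etv4 overlapped those of its neighbour Dusp5, with means of 5.04 and 5.46 FPKM. No other neighbours overlapped there, and the order was otherwise as in Atg5F/F-labelled libraries.

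Over the 6 libraries, the log2 values of Dusp1 and Etv4 correlated at a Pearson r of 0.98 and those of Dusp1 and Spred2 at -0.93. Dusp6 correlated with Spry2 at 0.44 and with Spry4 at 0.32. These are descriptions over 6 points that fall into the 2 groups, so a difference between the groups alone makes such values large. Outside the 10 genes, the tested genes most like Dusp6 over the 6 libraries were Ppp2r1b, a scaffold subunit of protein phosphatase 2A (r = 0.981), Adprm (r = 0.971) and the copper importer gene Slc31a1 (r = 0.953). None of these 3 was called.

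The remaining genes of the pathway were read from lists of ligands, receptors, cascade members, other inhibitors, and other targets with ETS factors and serum response factor. Of 24 receptor ligands, 14 were tested, of which 4 were higher and 3 lower (50.0% called, against 39.2% of all genes tested), with a median log2 fold change of 0.03. Areg, a ligand of the EGF receptor, fell from 10.4 ± 0.79 to 2.45 ± 0.50 FPKM (-1.735) and Gas6, the ligand of AXL, by 0.74 on the log2 scale. Fgf1 rose from 3.398 ± 0.37 to 8.37 ± 0.24 FPKM (1.09) and Pdgfb by 0.64. Of 21 receptor tyrosine kinases, 14 were tested, of which 6 were higher and 2 lower (57.1% called, against the same 39.2%, median 0.11). Kdr fell (-0.63), and Kit (0.53), Fgfr1 (0.47) and Epha1 (0.39) rose.

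In the cascade itself, 31 of 33 genes were tested, 8 were higher, 4 lower and 19 not called (38.7% called, median 0.06). Rras (0.38), the scaffold gene Cnksr1 (0.34) and Nras (0.29) rose, whereas Pea15a, which encodes a protein that holds ERK in the cytoplasm, fell from 249.8 ± 7.48 to 195.2 ± 3.01 FPKM (-0.35). Of 20 further DUSP-family genes, 15 were tested, 2 were higher and 3 lower (33.3% called, median 0.01). Dusp14 fell from 31.2 ± 0.50 to 22.1 ± 1.98 FPKM (-0.48), Dusp3 by 0.18 and Dusp16 by 0.15 on the log2 scale, while Styx, a catalytically inactive relative, rose by 0.34 from 0.92 FPKM. Among Atg5F/F-labelled libraries Styx reached 1 FPKM in replicate 1 only, so it passed the filter through the group where it was higher. The higher calls in this list were Styx and Dusp11, and no gene of it was called higher without Atg5F/F-labelled replicate 2, Atg5F/F-labelled replicate 3 or Atg5KO-labelled replicate 1.

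Of 24 other negative regulators, 21 were tested, 6 were higher and 3 lower (42.9% called, median 0.09). Spred3, the third SPRED gene, fell from 5.42 ± 0.13 to 4.25 ± 0.30 FPKM (-0.29), in the same direction as Spred2. Rasa1, which encodes a Ras inactivator (0.33), and the cytokine feedback gene Socs3 (0.47) rose. Spry3 was at 0 in every library.

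Other targets of ERK, listed together with ETS factors and serum response factor, went both ways. Of 25, 22 were tested, 9 were higher and 5 lower, and 8 were not called (63.6% called, against 39.2% of all genes tested, median 0.15). Fos, an immediate-early gene, rose from 5.02 ± 0.24 to 7.73 ± 0.50 FPKM (0.54), and the receptor gene Epha4 rose from 14.95 ± 0.13 to 22.4 ± 0.69 FPKM (0.55). Fosl1, which encodes FRA1, fell from 6.56 ± 0.44 to 3.29 ± 0.39 FPKM (-0.82), and Plaur, the urokinase receptor gene, from 89.7 ± 4.55 to 57.1 ± 3.09 FPKM (-0.64). Epha4, Fos, Fosl1 and Plaur were named for having the largest absolute changes among the called genes of this list, so large values were fixed by that choice. Upward, Epha4 and Fos lay little above Dusp1 (0.48, SE 0.074), and the target with the next largest rise, Maff (0.40), lay below it. Downward, Fosl1 and Plaur fell by more than Dusp14 (-0.48), the largest fall among the tested DUSP, SPRY and SPRED genes.

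**Figure D4:**
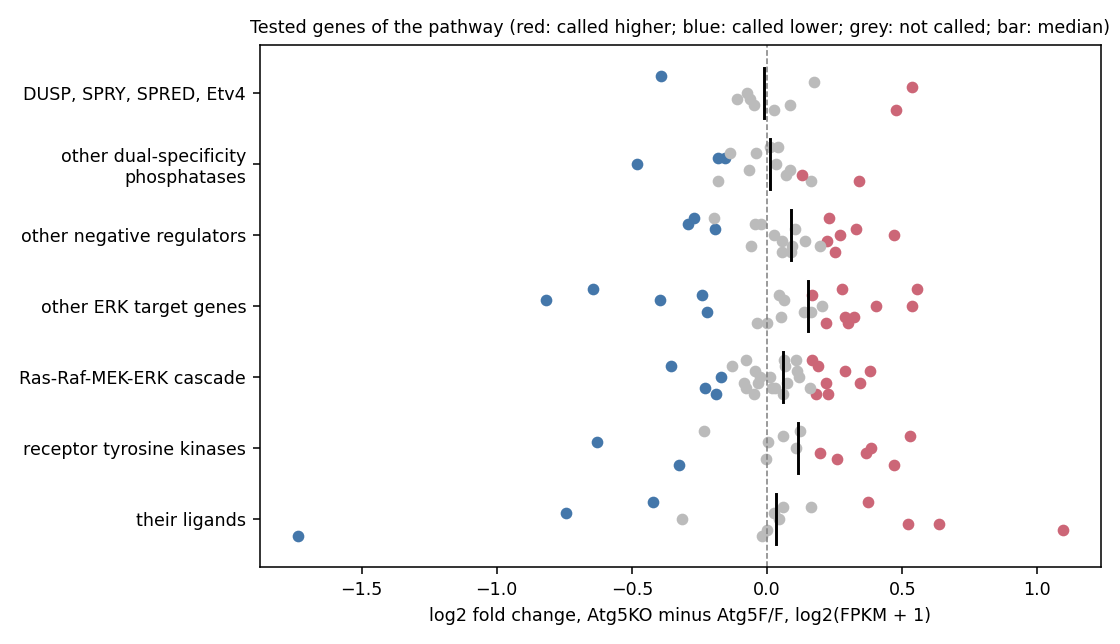
Log2 fold change, Atg5KO minus Atg5F/F on the log2(FPKM + 1) scale, of each tested gene of the 10 and of 6 lists of the pathway. Points are genes, coloured by call, and black bars list medians. The medians lie between -0.01 and 0.15, while single ligands reach from -1.735 to 1.09.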

How the data were processed

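Polyadenylated RNA was prepared with the TruSeq stranded kit, per the labels' protocols. The submitters' processing notes name, in no stated order, featureCounts 1.4.6, HISAT2 2.1.0, Trimmomatic 0.35, edgeR and bcl2fastq, with the builds GRCm38 and mm10. No source used here gives the gene annotation or whether counting used strand. Genes on the opposite strand overlap exons of Dusp1, Dusp5 and Spry1 in GENCODE vM21 (Ergic1, AC137853.2 and Gm42922). Reads cannot be told apart there if the shared stretches were counted. The lengths implied by the FPKM values were 1942, 1155 and 2493 bases, against 3311, 2473 and 2906 bases of exon in GENCODE vM21. Part of these exons thus appears not to have been counted, and whether this holds for the shared stretches is not known. The authors deposited FPKM per library for each gene symbol. Beside these, the authors' deposited table holds their log2 fold change, p-values, FDR and a ranking score. The p-values headed as adjusted in it are unadjusted: after Benjamini-Hochberg adjustment they equal its FDR within 4.7e-07.

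The FPKM steps gave back whole reads for 18294 of the 18296 genes above 0, within 2.0e-04 reads or a relative 1.5e-09, and with them the library totals and gene lengths. The fit was limma 3.58.1 in R 4.3.3 (variance trend) on log2(FPKM + 1) of genes reaching 1 FPKM in 3 or more of 6 libraries, Atg5KO minus Atg5F/F, with Benjamini-Hochberg adjustment over all of them. The fit and the recovery of reads were also run on simulated data, the outcome of which is not given here. The data simulated for the fit had far fewer changed genes than were called here. Named genes were the 10, Atg5, up to 4 called genes with the largest absolute change per pathway list and the 3 genes most like Dusp6. A gene that this rule selects is not reported here. The 10 genes and all lists were chosen with earlier results of these data known, the lists from general knowledge of the pathway. Nothing says that replicates came from separate animals or cultures. The spread behind each p-value is that between these samples and may be technical. The labels do not say that a replicate number marks a shared animal or day, so no pairing was used in the main fit. Deviations of same-numbered libraries of the groups correlated at r of 0.163, 0.075 and -0.023. Those of differently numbered libraries correlated at r of -0.131 to 0.047. Alternatives were a block for replicate number, omission of 1 library at a time, other scalings, pseudocounts, filters and variance models, removal of the length trend, and limma voom on the recovered reads with TMM factors.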

Additional observations from a re-analysis of the deposited data

How the results depend on the processing

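Over 16 other settings, Dusp1, Spred2 and Etv4 kept their direction and their call wherever they were fitted (Etv4 and Spry4 fell below the filter of 5 FPKM), and Dusp4, Dusp5, Dusp6, Spry1, Spry2 and Spry4 were called in none. The log2 fold change of Dusp1 ran from 0.39 to 0.54, that of Spred2 from -0.45 to -0.34 and that of Etv4 from 0.43 to 0.66. Spred1 was called with the replicate block (0.17, limma adjusted p = 0.0455), with the filter of 5 FPKM (0.17, adjusted p = 0.0493) and with voom on the recovered reads (0.16, adjusted p = 0.0288). Leaving out 1 library gave Spred1 values from 0.14 to 0.24, and it was called without Atg5F/F replicate 1 only. Spry2 ran from -0.14 to 0.02 when 1 library was left out and was above 0 without Atg5KO replicate 3. Over all settings Dusp4 ran from 0.05 to 0.13, Dusp5 from -0.15 to -0.04, Dusp6 from -0.11 to -0.04 and Spry4 from -0.14 to -0.02, and Spry1 stayed between 0 and 0.08. The count of other DUSP-family genes called was 3 to 5 when 1 library was left out. The count of receptors called was 5 with the filter of 5 FPKM, where fewer genes were tested, against 8. Without a filter, 7 ligands were higher and 3 lower, against 4 and 3. The replicate block changed no call of the 10 genes besides that of Spred1. The median of all genes moved by less than 0.1 under each scaling. With 95 to 309 reads per library for Etv4, Dusp5 and Spry4, small changes of these genes are less well resolved than those of Dusp1.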
